A study of Mus musculus with 8 samples.

Results

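The kinase mTOR and the proteins that form its complexes or switch it on and off were followed at the transcript level in cells of renin lineage (CoRL), before and after podocyte loss. The set has 10 genes, taken by gene symbol: the kinase Mtor, the shared subunits Mlst8 and Deptor, the subunits Rptor and Rictor, the upstream regulators Tsc1, Tsc2 and Rheb, and the substrates Rps6kb1 and Eif4ebp1. Of these, 9 had a named probe on the array, with 17 of its 25697 probes, and Rps6kb1 was not analysed here. Probes carried the current symbols, so no former name was needed.

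All mice were of the strain Ren1cCre×Rs-ZsGreen-R, in which Cre under the renin regulatory region switches on ZsGreen for good in cells that make renin or once did. In 4 mice, called day 5 FSGS, a cytotoxic sheep antibody against glomeruli had been injected intraperitoneally in 2 doses 24 h apart, each of 12 mg for 20 g of body weight, and the kidneys were taken on day 5 after the second dose; 4 age-matched mice without antibody, whose age the labels do not give, were uninjured. ZsGreen-positive cells of the digested cortex were sorted, and their amplified RNA was hybridized to Illumina MouseRef-8 v2.0 BeadChips, 1 array per mouse. Levels below are log2 intensities after background correction and quantile normalization, changes are day 5 FSGS minus uninjured on that scale, and the call was set at the study's adjusted p of 0.01 or less.

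mTOR is a serine/threonine kinase that sits in a pair of complexes sharing Mlst8 and the inhibitor Deptor. Complex 1, defined by raptor (Rptor), is recruited to the lysosome when amino acids are plentiful, is switched on there by the GTPase Rheb, and drives protein synthesis through S6 kinase and the translation repressor 4E-BP1 (Eif4ebp1) while holding back autophagy. Complex 2, defined by Rictor, phosphorylates Akt and related kinases, and the tuberous sclerosis proteins Tsc1 and Tsc2 keep Rheb in its inactive form. Much of this control acts on the proteins, by phosphorylation and by where they sit in the cell, and a transcript level does not measure it.

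Probes detected at a detection p under 0.01 numbered 5793 to 12052 on the uninjured arrays, the fewest in replicate 1, and 11153 to 11700 on the day 5 arrays. Across the 16593 genes, 312 rose and 63 fell. Renin itself (Ren1) and Akr1b7 were not analysed here. Of 15 measured markers of renin cells, smooth muscle and pericytes, 4 (Tagln, Cnn1, Pdgfrb and Foxd1) were detected on no array, while the pericyte and renin cell marker Rgs5 and smooth muscle actin Acta2 were detected on all 8. The mean log2 level of these 15 was 5.84 to 6.18 in uninjured and 5.72 to 6.51 in day 5 mice. Markers of other cell types were abundant and differed between the groups. Markers of macrophages and monocytes had higher means on day 5 for 17 of 17 measured (mean log2 level 9.19 to 10.75, against 7.24 to 7.87), and those of the proximal tubule lower means for 19 of 19 (7.72 to 9.94, against 10.32 to 10.59). Of the macrophage list 12 were called (70.6%), and of the tubule list 2 (10.5%), beside 2.26% of all genes. The groups did not overlap for 17 of 17 and 12 of 19, beside 20.0% of all genes. Day 5 FSGS replicate 3 stood nearest to the uninjured mice on both, and values without it are given below for the members and named pathway genes whose call it changes. In RNA pooled from sorted cells, a change in the mix of cells cannot be told apart from a change in RNA per cell.

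Promoter sequences were read for the members found in the RefSeq table and for the pathway genes Nprl2 and Stk11. Those printed, all with a motif match, are of the member with separate groups (Mtor), the activator Rheb and the pathway gene that fell at the lysosome (Nprl2). Each is the 250 bases before the RefSeq start site in GRCm38.p6, written 5′ to 3′ on the strand of the gene, with motif matches in capitals.
Mtor (chr4:148448332-148448581, plus strand): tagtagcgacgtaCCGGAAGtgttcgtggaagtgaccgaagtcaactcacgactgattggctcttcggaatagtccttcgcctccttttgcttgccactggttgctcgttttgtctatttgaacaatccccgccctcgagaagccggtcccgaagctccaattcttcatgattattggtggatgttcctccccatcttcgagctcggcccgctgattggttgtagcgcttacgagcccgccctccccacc
Rheb (chr5:24842362-24842611, minus strand): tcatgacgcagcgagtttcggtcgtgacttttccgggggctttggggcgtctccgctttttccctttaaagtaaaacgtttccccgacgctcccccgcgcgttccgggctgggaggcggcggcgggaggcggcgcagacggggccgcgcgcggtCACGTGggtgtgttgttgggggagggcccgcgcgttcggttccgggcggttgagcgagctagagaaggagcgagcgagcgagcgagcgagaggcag
Nprl2 (chr9:107541959-107542208, plus strand): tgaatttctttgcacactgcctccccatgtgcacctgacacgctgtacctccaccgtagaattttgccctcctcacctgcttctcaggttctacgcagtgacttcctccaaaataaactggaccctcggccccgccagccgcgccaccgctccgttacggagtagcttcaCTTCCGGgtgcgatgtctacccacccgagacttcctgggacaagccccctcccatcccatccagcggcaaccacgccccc
The motifs searched on both strands were CCGGAAG for ETS, AAGGTCA for ERR, a pair of GAAA with 2 bases between for IRF, and the palindrome CACGTG, the E-box, and no match overlapped another. Of 8 member promoters found in the RefSeq table, 2 held the ETS letters (Mtor, 237 to 231 bases before the start, and Tsc2, 8 to 2 bases before it), beside 6.91% of 32851 promoters. The E-box was in 1, that of Rheb, 96 to 91 bases before the start, beside 6.02% of all. The ERR letters (4.08% of all promoters) and the IRF letters (2.98%) were in 0 of the 8. Nprl2 held the ETS letters on the opposite strand, 80 to 74 bases before the start, and Stk11 held none of the motifs. Mtor and Tsc2, which share the ETS letters, had changes of -0.76 and -0.23, the latter turning with median scaling. These matches describe letters in a window and measure no binding.

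None of the 9 measured genes passed the threshold of 0.01, at which limma called 2.26% of all genes. None passed at 0.05 either, where it called 14.3%, and the lowest adjusted p was 0.0651, for Mtor. At an unadjusted p under 0.05 there were 3 genes (Mtor, Deptor and Eif4ebp1), against 30.5% of all genes. At an adjusted p of 0.05 under the alternatives, 3 of the 9 passed with 75th percentile scaling (34.2% of all genes), 2 with median scaling (12.4%), 2 without day 5 replicate 3 (22.4%), 1 without uninjured replicate 1 (10.2%), 3 without both of these mice (22.4%) and 1 with the replicate number as a block (8.68%). With the filter on detection, which left out Rptor and Tsc1, 2 members passed, beside 38.0% of the 6964 genes kept. The Bayesian test, the only test that the methods name for the arrays, called 9.82% of all genes and 0 of the 9 after adjustment. The methods give a test with unequal variances under general statistics, without such adjustment. Applied here to the arrays with adjustment, it called 0% of all genes and 0 of the 9. Means were lower on day 5 for 6 genes and higher for 3, with a median change of -0.22 beside -0.033 over all genes, and with median scaling Mlst8 and Tsc2 turned higher (0.10 and 0.08) and Tsc1 lower (-0.0038). The median absolute change was 0.38 for the 9 genes, 0.23 for all genes and 0.42 for the 4097 genes detected on all 8 arrays.

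**Figure D1:**
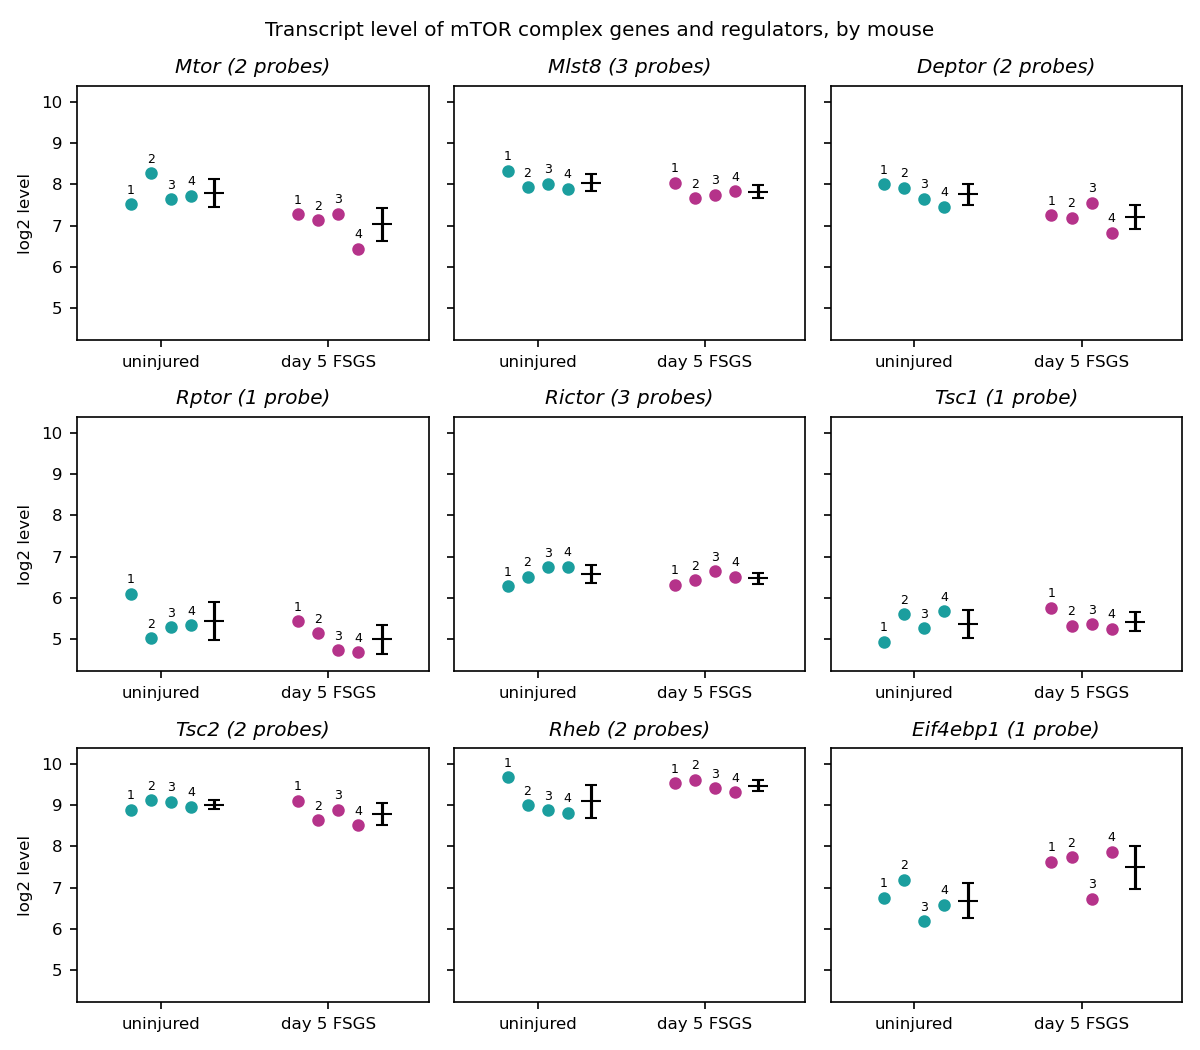
Log2 level of each measured gene in the 8 mice (y axis, log2 intensity; numbers are replicate numbers; n = 4 per group; black marks give the mean and SD). The Mtor levels of the 4 day 5 mice, 6.43 to 7.29, lie below the 4 uninjured ones, 7.52 to 8.27, while the groups overlap for each of the other 8 genes; levels are not comparable between genes.

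The kinase and the subunits common to both complexes had lower means on day 5, except that Mlst8 was higher with median scaling. In replicate order, the Mtor levels were 7.52, 8.27, 7.64 and 7.73 in the uninjured mice and 7.28, 7.13, 7.29 and 6.43 on day 5. Every day 5 value was below every uninjured one, with day 5 replicate 4 the lowest by far. Mtor was the only one of the 9 genes whose groups did not overlap, an order that 9.60% of all genes showed in this direction and 20.0% in either. The group means were 7.79 ± 0.33 and 7.03 ± 0.40 (SD, n = 4 mice each), a change of -0.76 (SE 0.23, 95% interval -1.30 to -0.22, adjusted p = 0.0651 from limma). Leaving out single mice gave changes of -0.85 to -0.56, the smallest without day 5 replicate 4, with adjusted p between 0.0505 and 0.142. The Mtor change was -0.41 in the authors' table and -0.43 without background correction, and its adjusted p ranged from 0.0277 (75th percentile scaling) to 0.205 (median scaling) over all alternatives.

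Deptor, which binds the kinase in both complexes and inhibits it, stood at 8.00, 7.92, 7.66 and 7.46 in the uninjured mice and at 7.25, 7.19, 7.56 and 6.83 on day 5. Only day 5 replicate 3 reached the range of the uninjured mice. The change was -0.55 (SE 0.18, 95% interval -0.97 to -0.14, adjusted p = 0.0787), and it was -0.23 with median scaling (adjusted p = 0.361), -0.28 in the authors' table and -0.30 without background correction. Mtor minus Deptor within an array changed by -0.21, so that the kinase and its inhibitor did not differ detectably in their change (exact permutation test, two-sided, p = 0.371). Mlst8, a subunit that binds the kinase domain in both complexes, spanned 7.89 to 8.34 in uninjured and 7.66 to 8.04 in day 5 mice, with a change of -0.22 (SE 0.13, 95% interval -0.52 to 0.08, adjusted p = 0.310).

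The subunits that set the complexes apart were weakly or partly measured. The only Rptor probe was not well above background on any of the 8 arrays (detection p 0.029 to 0.667), with levels of 5.02 to 6.09 in uninjured and 4.67 to 5.42 in day 5 mice, so no fold is given. Rictor levels, the mean of 3 probes, were 6.28, 6.51, 6.73 and 6.75 in uninjured and 6.31, 6.43, 6.64 and 6.51 in day 5 mice, with full overlap and a change of -0.10 (SE 0.13, 95% interval -0.40 to 0.21, adjusted p = 0.680). On 1 of these probes, detected on all 8 arrays, the means were 8.72 ± 0.10 and 8.59 ± 0.20 (SD, n = 4 mice each). Rptor minus Rictor changed by -0.35 (exact permutation test, two-sided, p = 0.514), a value that rests on a Rptor signal at background.

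Among the upstream regulators, Rheb had a higher mean on day 5, as did Tsc1 by 0.06, with a signal mostly at background. The Rheb levels were 9.69, 9.004, 8.89 and 8.82 in the uninjured mice and 9.54, 9.63, 9.43 and 9.32 on day 5. Uninjured replicate 1, on whose array fewest probes were detected, was above all day 5 mice, and the other 3 uninjured mice were below them. The change was 0.38 (SE 0.19, 95% interval -0.07 to 0.82, adjusted p = 0.236), and 0.57 without uninjured replicate 1 (adjusted p = 0.0272). The Rheb probes differed, with changes of 0.68 (SE 0.38) and 0.07 (SE 0.16), although the platform assigns both to 1 transcript and both were detected on all 8 arrays.

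Tsc2, the GTPase-activating subunit that acts on Rheb, stood at 8.90, 9.12, 9.09 and 8.97 in uninjured and at 9.12, 8.64, 8.90 and 8.52 in day 5 mice. The groups overlapped, and the change was -0.23 (SE 0.14, 95% interval -0.55 to 0.10, adjusted p = 0.330). Its 2 probes, which the platform annotates to different RefSeq transcripts, changed by -0.16 and -0.29. Tsc1, which stabilizes Tsc2, was detected on 1 array of each group, with levels of 4.93 to 5.67 in uninjured and 5.24 to 5.76 in day 5 mice. Tsc2 minus Tsc1 changed by -0.28 (exact permutation test, two-sided, p = 0.2), a value that rests on a Tsc1 signal mostly at background and that turned to 0.0888 with median or 75th percentile scaling. Over the 3 differences between genes that were compared, the exact permutation p after Benjamini-Hochberg adjustment was 0.514 for each, and the smallest raw p that 4 mice against 4 allow is 0.0286.

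Eif4ebp1, whose protein holds back cap-dependent translation until mTOR phosphorylates it, had a higher mean on day 5, and it was detected on 7 of the 8 arrays. The levels were 6.76, 7.20, 6.19 and 6.59 in the uninjured mice and 7.63, 7.74, 6.72 and 7.88 on day 5. Day 5 replicates 1, 2 and 4 were above all uninjured mice, and day 5 replicate 3 lay within their range. The means were 6.68 ± 0.42 and 7.49 ± 0.52 (SD, n = 4 mice each), a change of 0.81 (SE 0.29, 95% interval 0.14 to 1.49, adjusted p = 0.102). Without day 5 replicate 3 the change was 1.07 (adjusted p = 0.0130), and without any 1 of the other 7 mice the adjusted p was between 0.0893 and 0.237.

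**Figure D2:**
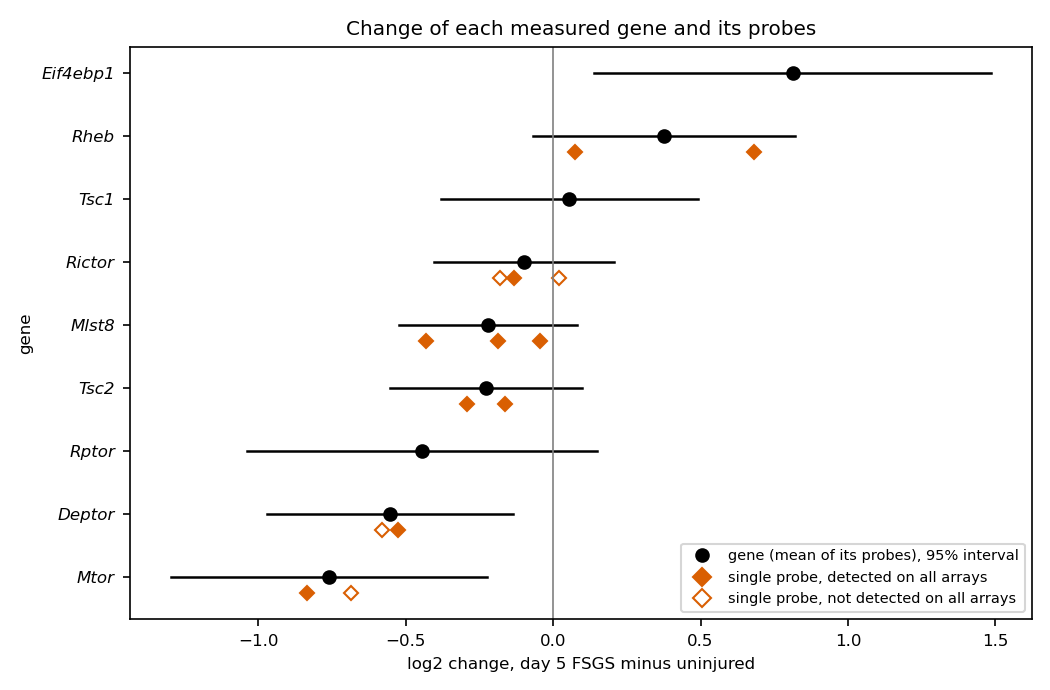
Change of each measured gene, day 5 FSGS minus uninjured, on the log2 scale (x axis), with its 95% interval from limma (black) and the change of each probe where a gene has several (orange, filled where detected on all 8 arrays). The intervals of Mtor, Deptor and Eif4ebp1 do not include 0, and no gene passed the adjusted threshold.

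Taken probe by probe, 0 of the 17 passed at an adjusted p of 0.01, where limma called 2.46% of all named probes, and 0 at 0.05, where it called 13.1%. Of the 17 probes, 10 were detected on all 8 arrays, 5 on some and 2 on none (the Rptor probe and 1 of Rictor). Means were lower for 12 probes and higher for 5. The groups did not overlap for 3 of the 17 probes, both of Mtor and 1 of Deptor, where 19.0% of all named probes showed this. In 5 of the 6 genes with over 1 probe all probes changed in the same direction, with Rictor the exception (-0.18 to 0.02). The brighter Mtor probe changed by -0.83 (SE 0.25, adjusted p = 0.0623), the dimmer one by -0.69 (SE 0.24, adjusted p = 0.101) and was detected on 5 of the 8 arrays. The brighter Deptor probe stood at 8.63 ± 0.10 in uninjured and 8.10 ± 0.28 in day 5 mice (SD, n = 4 mice each), a change of -0.53 (SE 0.15, adjusted p = 0.0520). Without day 5 replicate 3 its adjusted p was 0.00807, the only call among the 17 when mice were left out singly, in a setting that called 10.2% of all named probes.

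The order of mice for Mtor and Eif4ebp1 can be read beside the marker genes, in pairs of gene and marker list that were not planned. Proximal tubule markers had mean log2 levels of 9.46, 8.96, 9.94 and 7.72 in day 5 replicates 1 to 4, and Mtor ranked these mice the same way, highest in replicate 3 and lowest in replicate 4. Deptor had that order too. Distal nephron markers, also lower on day 5 in 12 of 12 means, were highest in replicate 3 but lowest in replicate 2 (6.62, against 6.80 in replicate 4). Macrophage and monocyte markers stood at 10.42, 10.64, 9.19 and 10.75 in the same mice, an order that Eif4ebp1 shared, lowest in replicate 3 and highest in replicate 4. This order is the exact reverse of that of the tubule markers. Mtor thus also ran opposite to the macrophage markers, and Eif4ebp1 opposite to the tubule markers. The order of these 4 mice cannot tie either gene to 1 list rather than the other. In the 4 uninjured mice, where the tubule markers spanned 10.32 to 10.59, the orders differed: Mtor was highest in replicate 2, as were the tubule markers, but second in replicate 4, where these were lowest. Eif4ebp1 was highest in uninjured replicate 2, the mouse with the lowest macrophage markers. The part of these cells in either change was not tested.

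**Figure D3:**
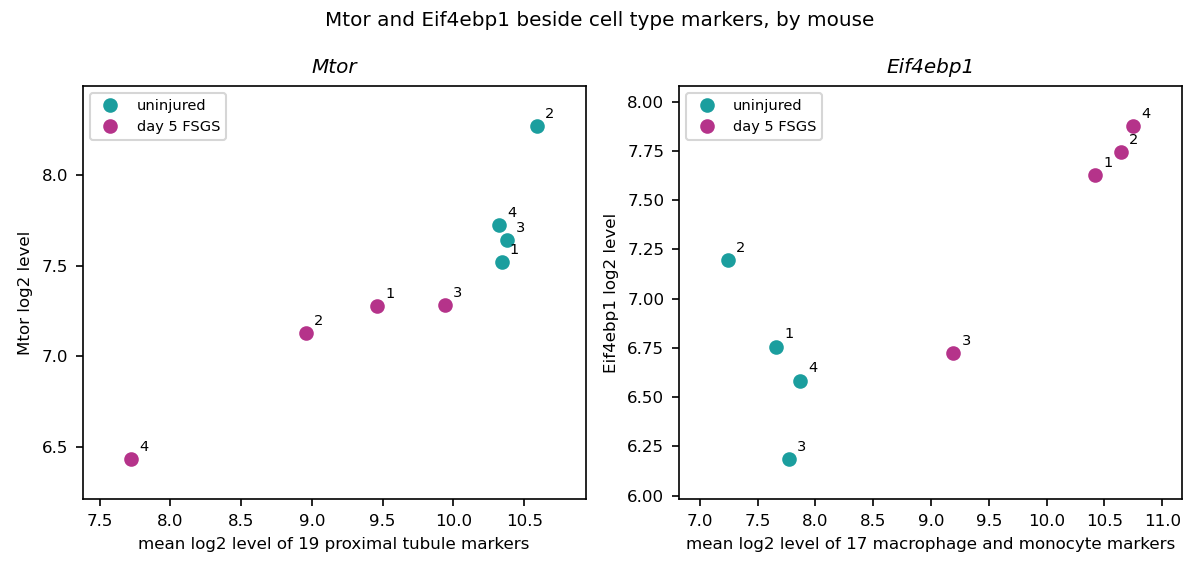
Mtor against the mean level of 19 proximal tubule markers, and Eif4ebp1 against that of 17 macrophage and monocyte markers, in the 8 mice (both axes log2 level; numbers are replicate numbers). In day 5 mice, Mtor and the tubule markers are lowest in replicate 4, and Eif4ebp1 and the macrophage markers are lowest in replicate 3. The marker lists run in reverse order of each other in these mice.

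The genes with the profile most like Mtor over the 8 arrays were Hpn, a membrane serine protease (root mean square difference of mean-centred log2 levels 0.07), the lipid transporter Abca3 (0.13) and the steroid dehydrogenase Hsd17b11 (0.13), out of 4096 genes detected on all arrays. Their changes were -0.82, -0.87 and -0.64. For Eif4ebp1 these were Ifrd1 (0.09), the heparan sulfate proteoglycan Gpc3 (0.17) and the glucocorticoid-induced gene Tsc22d3 (0.17), with changes of 0.72, 0.73 and 0.74. Picked for this likeness on the same arrays, the 6 were bound to have changes near those of Mtor or Eif4ebp1. None of the 6 passed the threshold, with adjusted p between 0.0550 and 0.110.

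Around the complexes, 117 of 127 further pathway genes were measured, of which 3 rose and 2 fell. This is 4.27% beside the 2.26% of all genes called (1.88% higher and 0.380% lower). At an adjusted p of 0.05 there were 14 higher and 11 lower, 21.4% beside 14.3%. Their median change was 0.03. The groups did not overlap for 34 of them, 29.1% beside 20.0%. The 5 calls, Nprl2, Stk11, Irs1, Inpp5d and Hk2, were each lost without any 1 of 7 mice (adjusted p 0.0113 to 0.0342) and kept without day 5 replicate 3. Nearly all calls were lost in those 7 settings. Over all genes, limma then called 0 to 37 higher and 0 to 2 lower, against 312 and 63 with all mice. Without that mouse, 21 of the 117 were called, 13 higher and 8 lower, which is 17.9% beside 11.4% of all genes in the same setting. By list these were 4 of 28 for amino acid sensing, 6 of 19 for PI3K, 2 of 14 for energy, 3 of 13 for translation, 2 of 16 for autophagy, 2 of 8 downstream of complex 2, 2 of 11 anabolic targets and 0 of 8 further subunits.

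Of 28 measured genes that pass the amino acid signal to complex 1 at the lysosome, 1 fell and 27 did not pass the test (median -0.04, 14 means higher and 14 lower). That is 3.57% called, beside 2.26% of all genes. At an adjusted p of 0.05, 2 were higher and 5 lower, 25% beside 14.3% of all genes. The groups did not overlap for 11 of the 28, 39.3% beside 20.0%. Nprl2 encodes a subunit of GATOR1, the complex that turns off the Rag GTPases when amino acids are scarce. Its levels were 8.55, 8.06, 8.11 and 8.23 in uninjured and 7.27, 7.24, 7.57 and 7.17 in day 5 mice. The groups did not overlap, and Nprl2 fell by 0.92 on the log2 scale (SE 0.14, adjusted p = 0.00811). The call ended with median scaling (adjusted p = 0.0449) and with a normexp offset of 50 (0.0108). Among 8 further subunits and assembly factors of the complexes, 0 were called (beside 2.26% of all genes), 6 means were lower and the median change was -0.21. The complex 2 subunit Mapkap1 (mSin1) had the smallest p, with a change of -0.32 (SE 0.14, adjusted p = 0.166).

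Of 14 measured genes of energy and stress input, 1 rose and 13 did not pass the test (median -0.04), 7.14% called beside 2.26% of all genes. Stk11, or LKB1, the kinase that activates AMPK and through it Tsc2, stood at 8.86, 8.74, 8.58 and 8.59 in uninjured and at 9.44, 9.38, 9.45 and 9.49 in day 5 mice. All day 5 values were above all uninjured ones and close to each other, and Stk11 rose by 0.75 (SE 0.10, adjusted p = 0.00577). It was not called with scaling to the 75th percentile (adjusted p = 0.0219) or by the methods' Bayesian test (0.0240). The catalytic AMPK subunit Prkaa2, named after its values were seen, had a change of -1.65 (SE 0.44, adjusted p = 0.0423), from 9.27 to 9.78 in uninjured down to 6.83 in day 5 replicate 4 and 9.12 in replicate 3. It passed the threshold without day 5 replicate 3 (change -2.03, adjusted p = 0.00529), with 75th percentile scaling (0.00939) and by the methods' Bayesian test (0.000902).

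Growth factor input through PI3K held 1 rise and 1 fall among 19 measured genes (median 0.26), 10.5% called beside 2.26% of all genes. Irs1, which links the insulin and IGF1 receptors to PI3K, fell from 8.82, 8.72, 8.14 and 8.39 in uninjured to 6.91, 5.82, 7.21 and 6.74 in day 5 mice. Inpp5d, or SHIP1, a lipid phosphatase of blood cells that removes the PI3K product, rose from 5.51, 5.38, 5.62 and 5.69 to 7.60, 8.24, 7.03 and 8.31. Both sets of values were free of overlap, with changes of -1.85 (SE 0.30, adjusted p = 0.00953) and 2.25 (SE 0.27, adjusted p = 0.00543). Both calls ended with a normexp offset of 50 (adjusted p = 0.0114 for Irs1 and 0.0102 for Inpp5d). Inpp5d was detected on 1 of the 4 uninjured arrays and all 4 day 5 arrays. In day 5 mice it was lowest in replicate 3 and highest in replicate 4. That order was the order of the macrophage markers and the reverse of that of the tubule markers.

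Downstream of complex 1, 0 of 13 measured translation effectors were called (median -0.08), beside 2.26% of all genes. At an adjusted p of 0.05, 2 were higher and 1 lower, 23.1% beside 14.3% of all genes. Rps6, the ribosomal protein that S6 kinase phosphorylates, had the smallest p and stood at 8.80, 7.98, 7.96 and 8.58 in uninjured and at 9.60, 10.08, 9.30 and 9.92 in day 5 mice, without overlap (change 1.39, SE 0.24, adjusted p = 0.0124). It passed the threshold without day 5 replicate 3 (adjusted p = 0.00414) and in 7 other settings, among them the authors' table (0.00983) and the methods' Bayesian test (0.000315). The paralogs of the substrates were named after their values were seen. Eif4ebp2 had levels of 8.94 to 9.29 in uninjured and 8.79 to 9.18 in day 5 mice (change -0.07, SE 0.13), and Rps6kb2, detected on 4 of the 8 arrays, had a change of -0.36 (SE 0.29).

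Of 16 autophagy and lysosome effectors and of 8 genes downstream of complex 2, 0 were called (medians 0.11 and 0.05), beside 2.26% of all genes. Rubcn, which restrains autophagosome maturation, had a change of 0.84 (SE 0.15, adjusted p = 0.0135), and the kinase Prkcd one of 1.24 (SE 0.29, adjusted p = 0.0273), each with the smallest p of its list. Prkcd passed the threshold without day 5 replicate 3 (change 1.49, adjusted p = 0.00359), with median scaling (0.00531), with 75th percentile scaling (0.00869) and by the methods' Bayesian test (0.00398). Rubcn did so with median scaling (0.00810) and with the filter on detection (0.00792). It was detected on 1 uninjured array and all 4 day 5 arrays, so it met that filter only through the group where it was higher. The filtered value therefore adds no support. Among 11 anabolic targets of complex 1, Hk2, the hexokinase that starts glucose breakdown, was the 1 call (9.09%, beside 2.26% of all genes). Its levels were 6.02, 6.62, 6.96 and 6.71 in uninjured and 10.07, 10.26, 8.83 and 10.09 in day 5 mice, with day 5 replicate 3 well below the other 3. The median of that list was 0.28, with 8 means higher and 3 lower.

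**Figure D4:**
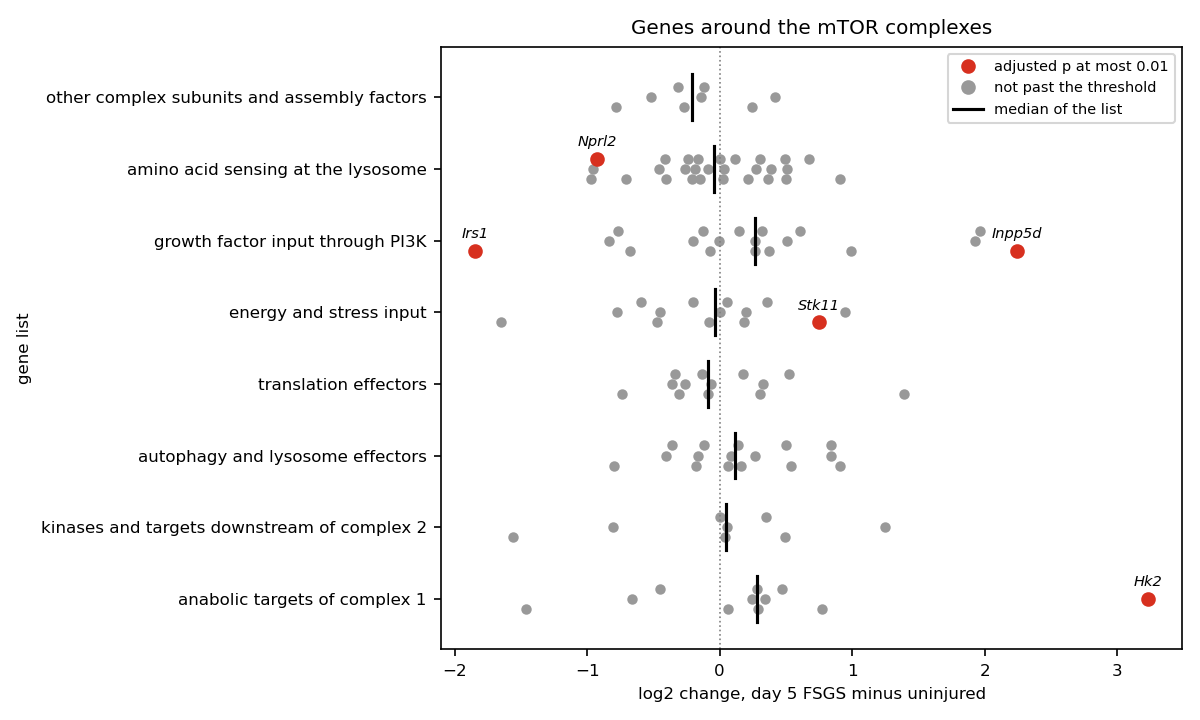
Changes of 117 measured genes around the mTOR complexes (x axis, log2 change, day 5 FSGS minus uninjured) by list, with called genes in red and named and the median of each list as a black line. Medians lie between -0.21 and 0.28, and the 5 called genes are spread over 4 lists and both directions.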

How the data were processed

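Gene expression was measured in sorted CoRL of 4 uninjured and 4 day 5 FSGS mice on 8 arrays, grouped by the titles of the samples. The authors deposited bead intensities on a linear scale, not normalized, with detection p-values that rank each bead signal against negative controls. A table of signal values, variance stabilized and quantile normalized by the authors with lumi, was used as an alternative. Background correction before export, the lumi version and chip position were not stated in the labels or methods.

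Intensities were processed with neqc of limma 3.58.1 (R 4.3.3): normexp from the detection p-values, offset 16, quantile normalization, log2. Probes were named from the platform annotation of GEO and updated by RefSeq gene number (23978 named, 23962 matched, 1719 unnamed here), and averaged per gene. lmFit and eBayes compared the groups over 16593 genes, and over 23978 probes, with Benjamini-Hochberg adjustment. Probe positions were not used here. Single differences were tested by exact permutation over 70 arrangements. The methods' Bayesian test (CyberT) was rebuilt from its formula with a confidence of 10. Dim genes are measured less precisely, and background compresses their changes. The number of arrays limits precision. The calling was run on simulated data, with independent genes and with changes, larger than those of the members, added to brighter genes. That run does not measure how well changes of the members' size are found.

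The members and lists were chosen with earlier results of these data known. Named genes were all members and probes, the called genes of each pathway list (up to 3) or else the one of smallest p, and the 3 genes most like Mtor and the most changed member. The list members are from textbook knowledge. A planned difference, Eif4ebp1 minus Rps6kb1, was not analysed here. Matplotlib 3.10.9 drew the plots. Alternatives changed the background correction, scaling, table, filter, probe choice, test, block, threshold and mice.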

Additional observations from a re-analysis of the deposited data

Results flagged for a closer look

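Of 36 groups of 4 values over the members and named pathway genes, and 28 over single probes, 1 held a mouse far from the other 3, where chance flags about 1 in 20. Hk2 stood at 8.83 in day 5 FSGS replicate 3 and at 10.07 to 10.26 in the other day 5 mice (log2 level). The gap is 0.867 of the range of the group, above Dixon's critical value. The same mouse had the lowest macrophage and monocyte markers on day 5, and the highest proximal tubule and endothelial markers. The part of these cells in its Hk2 level was not tested.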

How the results depend on the processing

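No measured member passed an adjusted p of 0.01 under any alternative run, and 0 to 3 passed 0.05, where 8.68% to 38.0% of the genes tested passed in the settings in which any member did. The 38.0% is of the 6964 genes that the filter on detection kept. The number of arrays and, for Rptor and Tsc1, signal at background limit what could be detected. The median change of all genes, -0.033, was -0.18 with median scaling and -0.52 with 75th percentile scaling, and the members' median became -0.0038 with median scaling. Mlst8 turned to 0.10 and Tsc2 to 0.085 with median scaling. Tsc1 turned to -0.0038 and -0.35 with the scalings, to -0.0897 without uninjured replicate 1, to -0.0587 without day 5 FSGS replicate 1 (from -0.0897 to 0.157 over single mice) and to -0.0677 without uninjured replicate 1 and day 5 FSGS replicate 3 together, a choice made after seeing the data. Rictor was at 0.0199 on 1 probe. Tsc2 minus Tsc1 turned to 0.0888 with either scaling and Rptor minus Rictor to 0.12 without those 2 arrays. The cause was not tested.

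Genes higher and lower (312 and 63) and pathway genes called (5) numbered 157, 47 and 2 with offset 50. With median scaling they numbered 719, 38 and 10 (95% higher), and with 75th percentile scaling 579, 446 and 11 (56.5% higher). They numbered 788, 216 and 11 among the 6964 genes left when a probe had to be detected in every mouse of either group. Under the Bayesian test of the methods they were 994, 635 and 14. The unequal-variance test, which the methods do not name for the arrays, gave 0, 0 and 0 (3822 genes at an unadjusted p under 0.05). Without both arrays the counts were 1087, 629 and 19, and at an adjusted p of 0.05 they were 1419, 962 and 25. Lower genes were 134 with uncorrected background and 116 from the authors' values. With mice left out singly, counts ranged from 0 to 1187, 0 to 711 and 0 to 21, and member probes called from 0 to 1, the highest each without day 5 FSGS replicate 3. Without day 5 FSGS replicate 1, 0 genes were called in either direction (limma, 4447 at an unadjusted p under 0.05), and pathway calls were 0 without any of the 7 mice other than day 5 FSGS replicate 3. In those 7 settings, 0 to 37 of all genes were called higher and 0 to 2 lower. With the replicate number as a block, 0, 0 and 0 were called by limma (4871 genes at an unadjusted p under 0.05). The labels link same-numbered mice by that number alone, and whether they shared a sort, an amplification or a chip is not stated and was not tested. Same-numbered deviations correlated at -0.0912 to 0.111 across genes, and 3 of 8 arrays correlated best with their own number.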
